A study of Mus musculus with 21 samples.

Results

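Hematopoietic stem cells (HSCs) of mice labelled Mx1-Cre;Atg5fl/fl and of wild-type (WT) mice were compared after both had received bortezomib, a drug that blocks the proteasome. Every library labelled with one of these genotypes and with bortezomib was taken, 3 per group, which gave 6 of the 21 libraries of the series, and every gene of the count table was examined. Bortezomib had been given at 10 mg/kg into the retro-orbital sinus, 48 h and again 24 h before the cells were taken. The 3 WT and 3 Mx1-Cre;Atg5fl/fl libraries that had received 10% DMSO on the same schedule are given beside them. The cells were bone marrow cells of the phenotype CD48- LSK CD150+, where LSK stands for lineage-negative, Sca-1-positive and Kit-positive, and RNA was read as SMART-seq2 libraries. Cre under the Mx1 promoter is switched on by interferon, and the labels do not say how or when Cre was induced, or whether the WT mice had the same induction. They also give no age or sex and do not say whether each library came from its own mouse or from several. The spread between libraries may thus be partly technical. The Mx1-Cre;Atg5fl/fl libraries are called knockout-labelled below.

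Autophagy wraps damaged proteins and organelles in a double membrane and delivers them to the lysosome. Atg5 is part of the complex that attaches LC3 and GABARAP proteins to that membrane, and receptors such as p62 link ubiquitinated cargo to them. The proteasome degrades single ubiquitinated proteins, and when it is blocked the proteins it would have cleared can gather into aggregates that autophagy removes. HSCs keep protein synthesis low and are sensitive to a load of misfolded protein.

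The 6 libraries held 18282882 to 26626001 counts, and the first principal component of their log2 CPM (counts scaled to library size), with 49.2% of the variance, separated the genotypes. On the second component (18.3%), the third library of each genotype lay on the negative side. The share of Xist among Xist plus Ddx3y counts was 46.4%, 31.8% and 90.3% in the WT libraries and 100%, 0% and 3.51% in the knockout-labelled libraries. In the DMSO libraries this share was 99.2%, 98.6% and 60.0% in WT and 0.234%, 0.390% and 0.987% in knockout-labelled HSCs. Under bortezomib the share varied within both genotypes, and in DMSO the genotypes did not overlap in it, which bears on the DMSO contrast and on its difference from the bortezomib contrast. Both transcripts were counted in every WT bortezomib library, 653 Xist and 755 Ddx3y counts in the first, 350 and 749 in the second. The first knockout-labelled bortezomib library held 1610 Xist and 0 Ddx3y counts, the second 0 and 3109. Whether a library held cells of several mice was not tested. With the Xist share as a covariate, 5218 genes differed between the genotypes, and 3654 when only the 6 bortezomib libraries were fitted, against 5234 without it.

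The genes behind the positive gates, Slamf1, Kit and Ly6a, were detected in all 6 libraries. Slamf1, which encodes CD150, was measured at 23.0, 27.4 and 32.3 CPM in WT and 63.2, 61.9 and 48.3 CPM in knockout-labelled libraries (log2 fold change 1.07 ± 0.19, edgeR adjusted p = 0.000728). Here and below, ± after a fold change is its standard error with n = 3 libraries per group, fold changes are knockout-labelled against WT, and called means an adjusted p under 0.05 in edgeR's quasi-likelihood test over all 16149 tested genes. Kit stood at 378, 487 and 358 CPM in WT and 671, 658 and 486 CPM in knockout-labelled libraries, ranges that overlap by 1 library (0.57 ± 0.19, edgeR adjusted p = 0.0319). This call was lost with length and GC offsets (0.20) and without the first or the third WT or the first or second knockout-labelled library (0.48 to 0.52). It was also lost when only the 6 bortezomib libraries were fitted, without (0.57) or with (0.58) the Xist share as covariate. Ly6a, which encodes Sca-1, was 335, 295 and 509 CPM against 708, 559 and 704 CPM (0.79 ± 0.23, edgeR adjusted p = 0.0173), a call lost without the first or second WT or the first knockout-labelled library (0.64 to 0.74). Cd48, the gene of the antigen that was sorted against, was 35.0, 30.2 and 54.3 CPM in WT and 8.64, 3.57 and 14.4 CPM in knockout-labelled libraries (-2.16 ± 0.38, edgeR adjusted p = 0.000725). All 3 knockout-labelled libraries thus lay below all 3 WT libraries for Cd48. The lineage genes Cd3e and Ly6g had no counts in the 6 libraries.

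Atg5 itself (chromosome 10, 44268358 to 44364291 of GRCm38) was not called. Its level was 100.4, 72.1 and 135 CPM in the WT libraries and 95.2, 95.4 and 142 CPM in the knockout-labelled libraries (0.11 ± 0.25, edgeR adjusted p = 0.767), with overlapping ranges. The fitted value was below 0 without the second WT library (-0.08) and without the third knockout-labelled library (-0.13). In DMSO it was 56.5 ± 17.4 CPM (SD, n = 3) in WT and 112 ± 3.77 CPM in knockout-labelled libraries. The counts run over the whole gene, so they do not show whether the floxed part was removed, and the genotype rests on the labels.

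With the drug present, the genotypes differed at 5234 of 16149 tested genes (32.4%), of which 2770 (17.2% of the tested genes) were higher and 2464 (15.3%) lower in knockout-labelled HSCs. A fold change of 2 or more was fitted for 2849 of the called genes, and the 3 libraries of one group lay wholly above or below those of the other at 4905 of them, against 44.1% of all tested genes. In DMSO the same contrast called 0 genes (0.0%) by edgeR, with 1454 at an unadjusted p under 0.05. DESeq2 called 157 and limma voom with quality weights 114 there. The genotype difference under bortezomib was itself different from that in DMSO at 1462 genes (9.05%), 702 upward (4.35%) and 760 downward (4.71%), and 1402 of these were also called under bortezomib, all in the same direction. That interaction count was not stable to single libraries. It was between 352 and 768 on leaving out any one of the 8 libraries numbered 1 or 2, lowest without the second knockout-labelled DMSO library, and 2820 without the third knockout-labelled bortezomib library. With the Xist share as a covariate it was 276.

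Transcript length moved with the calls. Genes called higher had a median transcript length of 4086 nt and genes called lower 2192 nt, beside 2956 nt for all tested genes. Among the shortest quintile of genes (up to 1424 nt), 4.13% were higher and 21.65% lower, and among the longest quintile (from 4840 nt) 31.39% were higher and 6.06% lower. The shortest quintile took 21.2%, 20.7% and 20.6% of the counts in the WT bortezomib libraries and 12.5%, 13.7% and 17.9% in the knockout-labelled ones. In DMSO it took 14.7%, 14.5% and 19.6% in WT and 13.4%, 16.0% and 15.8% in knockout-labelled libraries. From the shortest to the longest quintile, the median log2 fold change rose from -0.43 to 0.49 under bortezomib. The same trend was smaller in DMSO, from -0.15 to 0.25. When offsets for the length and GC content of transcripts were added, 4918 genes were called, 1938 higher and 2980 lower, so that the share of calls that were higher was 39.41% in place of 52.92%. The median over all tested genes moved from 0.08 to -0.05. Of the genes first called, 4135 stayed called with these offsets, all in the same direction. What sets the length trend was not tested.

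**Figure D1:**
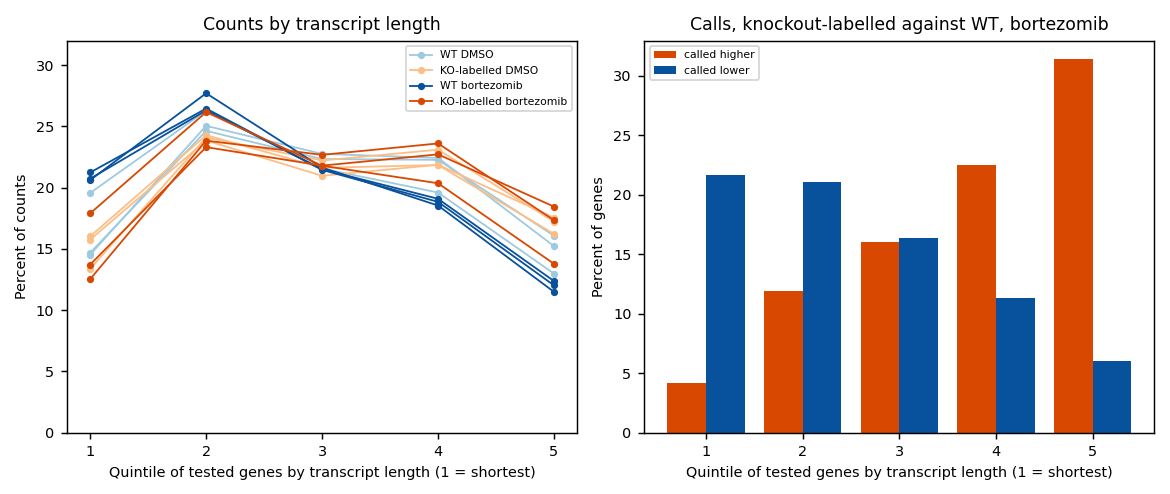
Left, percent of each library's counts that fall in each quintile of the tested genes by transcript length (quintile 1 is the shortest), with 1 line per library and 1 color per group. Right, percent of the genes in each quintile called higher or lower in knockout-labelled against WT HSCs under bortezomib. The WT bortezomib libraries have 20.6% to 21.2% of their counts in the shortest quintile and the knockout-labelled ones 12.5% to 17.9%. The DMSO libraries of both genotypes have 13.4% to 19.6%.

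Genes were grouped into 27 functional lists and 9 lists of markers of other cell types, and the plot of calls per gene list gives the functional ones.

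**Figure D2:**
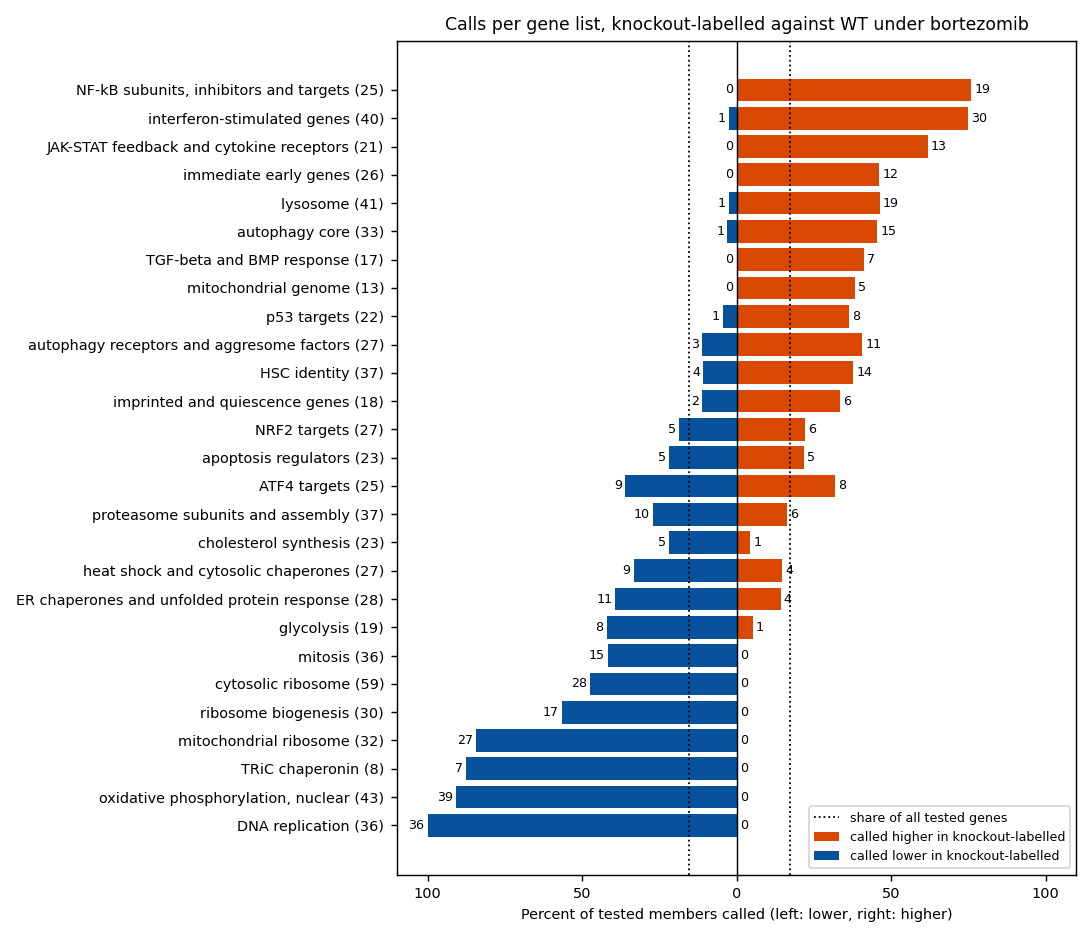
For each gene list, the percent of its tested members (number in brackets) called higher (right, orange) or lower (left, blue) in knockout-labelled against WT HSCs under bortezomib, with the number of genes at the bar end. Dotted lines mark the shares of all tested genes, 17.2% and 15.3%, and the lists run from NF-kB genes (19 of 25 higher) to DNA replication (36 of 36 lower).

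Many genes of autophagy were higher. Of 33 core autophagy genes tested, 15 were higher and 1 lower (Atg3), with a median log2 fold change of 0.43 against 0.08 for all tested genes and 0.00 for the list in DMSO. Ulk1, the kinase that starts autophagosome formation, was measured at 25.8, 25.9 and 27.9 CPM in WT and 102, 139 and 55.6 CPM in knockout-labelled libraries (1.89 ± 0.28, edgeR adjusted p = 0.00025). Its partners in the initiation complex, Atg13 (1.08) and Rb1cc1, which encodes FIP200 (1.64), were also called higher, as was Atg14 (1.19), a subunit of the lipid kinase complex that acts next. Gabarapl1, an LC3-like protein that Atg5's complex attaches to membranes, was 194, 176 and 187 CPM in WT and 288, 358 and 335 CPM in knockout-labelled libraries (0.82 ± 0.14, edgeR adjusted p = 0.000605). The WT and knockout-labelled ranges did not overlap for these genes. Map1lc3b, which encodes LC3B itself, was 266, 292 and 289 against 309, 393 and 400.1 CPM and was not called (0.38 ± 0.16, edgeR adjusted p = 0.0759), except with the replicate number as a block (0.37) or without the first knockout-labelled library (0.49). With length and GC offsets, 12 core genes were called higher and the median was 0.19.

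Sqstm1, which encodes the cargo receptor p62, had the clearest difference among the receptors. It was 195, 204 and 284 CPM in the WT libraries and 1179, 1604 and 759 CPM in the knockout-labelled libraries (2.37 ± 0.25, edgeR adjusted p = 7.94e-05; chromosome 11, 50199366 to 50210827). Every knockout-labelled library lay above every WT library. In DMSO, Sqstm1 was 322 ± 53.1 CPM in WT and 330.4 ± 54.6 CPM in knockout-labelled libraries (SD, n = 3), so the WT bortezomib mean lay below both DMSO means and all 3 knockout-labelled bortezomib libraries lay above them. Of 27 receptors and aggresome factors, 11 were higher and 3 lower (median 0.37). Calcoco1, a receptor for parts of the endoplasmic reticulum, rose from 11.1, 16.5 and 16.8 CPM in WT to 88.3, 87.8 and 47.5 CPM (2.33 ± 0.31, edgeR adjusted p = 0.000168). Higher too were Vcp (0.89), the ATPase that extracts ubiquitinated proteins from complexes, and Bag3 (1.20), a co-chaperone that sends misfolded proteins to autophagy. The 3 lower members were Dynll1 (-1.59), a light chain of the dynein motor, Phb2 (-1.39), a protein of the inner mitochondrial membrane, and Fundc1.

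Of 41 lysosomal genes, 19 were higher and 1 lower (Hexa), with a median of 0.40 and 0.02 in DMSO. Ctss, the protease cathepsin S, was 33.2, 31.6 and 49.8 CPM in WT and 155, 102 and 139 CPM in knockout-labelled libraries (1.79 ± 0.24, edgeR adjusted p = 0.000178). Gaa, which degrades glycogen in lysosomes, was 162, 183 and 186 CPM against 471, 403 and 388 CPM (1.24 ± 0.17, edgeR adjusted p = 0.000182). For both genes the lowest knockout-labelled library was above the highest WT library by more than 2-fold. Atp6v0a1, a subunit of the proton pump that acidifies the lysosome, was called higher with a log2 fold change of 1.10, and Tfe3, a transcription factor for lysosomal genes, with one of 1.10. With length and GC offsets, 17 of the 41 genes were higher and 3 lower.

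**Figure D3:**
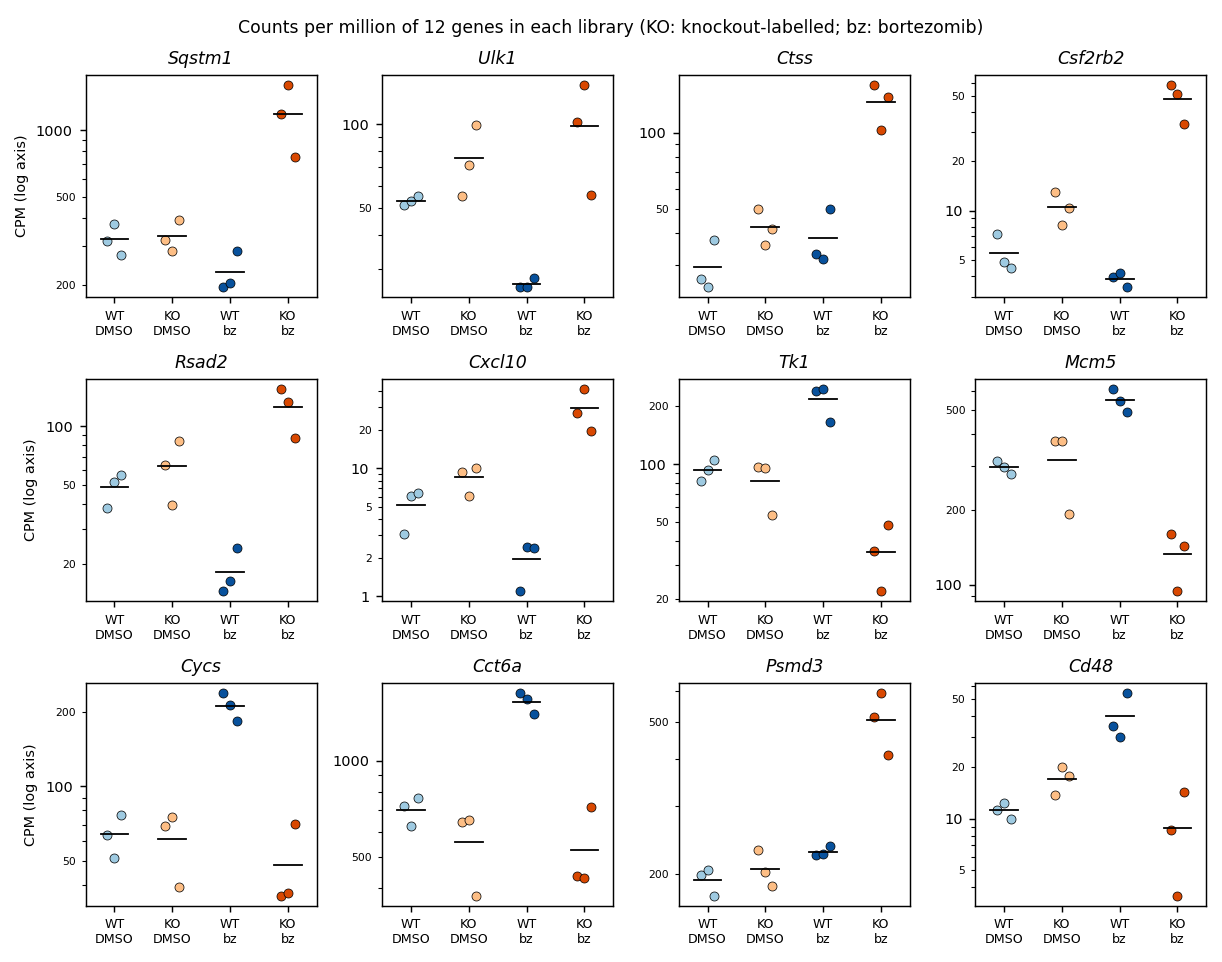
CPM (log axis) of 12 genes in each of the 12 treated libraries, with WT and knockout-labelled (KO) HSCs in DMSO and in bortezomib (bz). Points are libraries and horizontal lines group means. For each of the 12 genes the 3 WT and 3 knockout-labelled bortezomib libraries do not overlap, with Sqstm1 at 195 to 284 CPM in WT and 759 to 1604 CPM in knockout-labelled libraries.

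The proteasome genes did not move as 1 block. Of 37 subunits and assembly factors, 6 were higher and 10 lower (median -0.38, in DMSO -0.25). The higher share was near the 17.2% of all tested genes, and the lower share was above their 15.3%. The 6 higher genes, Psmd1, Psmd2, Psmd3, Psmd4, Psmd11 and Adrm1, all encode non-ATPase subunits of the 19S cap, which recognizes ubiquitinated proteins. Psmd3 was 224, 225 and 236 CPM in WT and 515, 594 and 409.7 CPM in knockout-labelled libraries (1.15 ± 0.16, edgeR adjusted p = 0.000215), and Psmd11 was 141, 140.4 and 152 against 331, 399 and 211 CPM (1.12 ± 0.20, edgeR adjusted p = 0.000872). Lower were Psma2, Psma6, Psmb5 and Psmb6 of the 20S core, Psmd8 and Psmd13 of the cap, and the chaperones Psmg1, Psmg2, Psmg3 and Psmg4, which assemble the core. Psmb5 encodes the subunit with chymotrypsin-like activity that bortezomib binds, and it was 285, 250.5 and 292 CPM in WT and 115, 97.1 and 189.9 CPM in knockout-labelled libraries (-1.04 ± 0.23, edgeR adjusted p = 0.00297; named after its value was seen). Psmg2 was 146, 132 and 145 against 67.6, 53.9 and 80.9 CPM (-1.06 ± 0.18, edgeR adjusted p = 0.000492). None of the 6 ATPase genes Psmc1 to Psmc6 was called. Without the third knockout-labelled library, 22 of the 37 genes were lower and 6 higher, and with the Xist share as covariate 16 were lower.

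**Figure D4:**
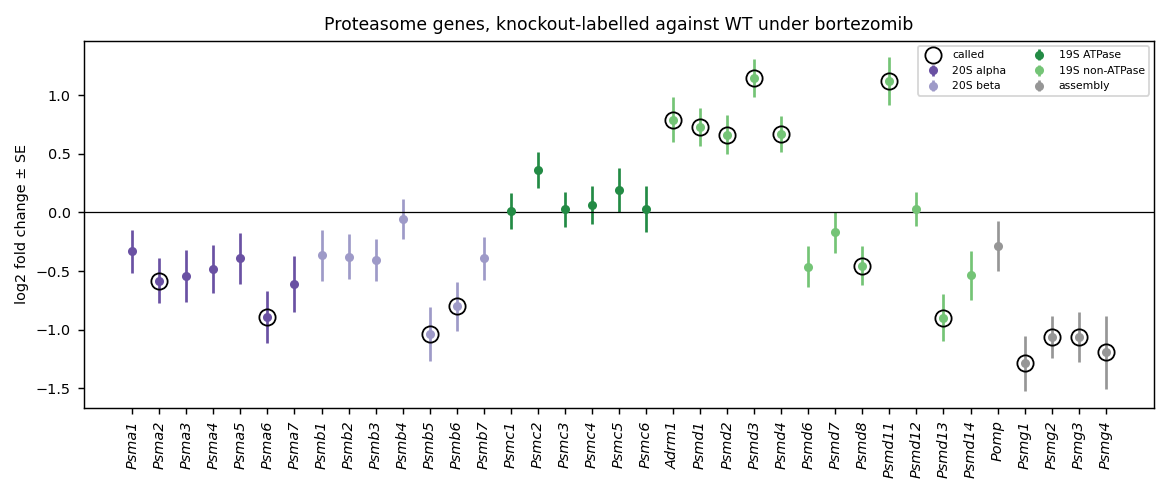
Log2 fold change (knockout-labelled against WT HSCs under bortezomib) of the 37 proteasome genes, with bars of 1 standard error, colored by subcomplex; open circles mark called genes. The called 19S non-ATPase genes lie on both sides of 0, with Psmd3 at 1.15, and the 4 called assembly chaperones lie below -1.

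Chaperone genes were lower more than higher. Of the 8 genes of the TRiC chaperonin, a folding chamber for actin and tubulin, 7 were lower and 0 higher (median -1.16, in DMSO -0.16). Cct6a was 1624, 1554 and 1400.5 CPM in WT and 438, 430.4 and 716 CPM in knockout-labelled libraries (-1.53 ± 0.23, edgeR adjusted p = 0.000285). In DMSO it was 704 ± 71.4 CPM in WT and 559 ± 155 CPM in knockout-labelled libraries (SD, n = 3). The higher level in the WT bortezomib libraries thus set them apart from the other 3 groups, as the plot of counts by library shows. Of 27 heat shock and cytosolic chaperone genes, 9 were lower and 4 higher (median -0.45). The lower share was above the 15.3% of all tested genes called lower, and the higher share was below the 17.2% called higher. Hspe1, the lid of the mitochondrial chaperonin, was 609, 593 and 428 CPM in WT and 69.4, 79.4 and 172 CPM in knockout-labelled libraries (-2.34 ± 0.33, edgeR adjusted p = 0.000221). Without the second knockout-labelled library, 5 heat shock genes were lower and 2 higher, and 2 were higher without the first or second WT library. The 4 higher genes were Bag3, Dnajb4, Hspb1 and Hspb8. The promoters of 3 of 8 lower members held the heat shock element (GAA, any 2 bases, TTC, any 2 bases, GAA) on either strand, against 0.662% of all genes, and none of the 4 higher members did. The matches of Hspd1 and Hspe1, a pair of the 3, are the same bases of 1 promoter that both genes share on opposite strands, and in the 250 bases before the start this pair held the 2 matches found.

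Of 28 endoplasmic reticulum chaperone and unfolded protein response genes, 11 were lower and 4 higher (median -0.43, in DMSO -0.29), and the higher share was below that of all tested genes. Sdf2l1, an endoplasmic reticulum chaperone partner, was 216, 187 and 241 CPM in WT and 27.8, 20.6 and 46.6 CPM in knockout-labelled libraries (-2.76 ± 0.39, edgeR adjusted p = 0.000209). Manf, a secreted stress factor, was 258, 246 and 299 against 83.9, 89.8 and 123 CPM (-1.44 ± 0.21, edgeR adjusted p = 0.000233). The 4 higher genes encode the sensors Ern1 (IRE1) and Atf6 and the degradation factors Syvn1 and Sel1l.

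Targets of ATF4, the transcription factor of the integrated stress response, went both ways, with 8 higher and 9 lower of 25 tested. The median was 0.23, and -0.09 with length and GC offsets. Ppp1r15a, which encodes GADD34 and reverses the block on translation, was 17.5, 21.3 and 22.0 CPM in WT and 97.1, 137 and 51.3 CPM in knockout-labelled libraries (2.23 ± 0.28, edgeR adjusted p = 0.000135). The lower members were mostly enzymes that make serine, glycine or proline. Psat1, of serine synthesis, was 523, 459 and 372 CPM in WT and 103, 58.9 and 152 CPM in knockout-labelled libraries (-2.11 ± 0.30, edgeR adjusted p = 0.000231), and Phgdh, the enzyme of its first step, had a log2 fold change of -1.70. Without the second WT library, 5 members were higher.

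NRF2 is a transcription factor that p62 can activate by binding its inhibitor KEAP1. Of 27 tested NRF2 targets, 6 were higher and 5 lower, shares near the background, with a median of 0.03. Osgin1, an oxidative stress growth inhibitor, was 12.9, 11.3 and 9.34 CPM in WT and 71.8, 69.4 and 52.8 CPM in knockout-labelled libraries (2.53 ± 0.28, edgeR adjusted p = 7.94e-05). Me1, malic enzyme, which makes NADPH, was 11.9, 10.5 and 16.7 CPM against 45.9, 44.7 and 42.5 CPM (1.77 ± 0.25, edgeR adjusted p = 0.000212). Both were wholly above WT. In the other direction, Hmox1, the heme-degrading enzyme, was 61.9, 66.0 and 74.2 CPM in WT and 21.9, 45.1 and 16.9 CPM in knockout-labelled libraries (-1.27 ± 0.33, edgeR adjusted p = 0.00873). The antioxidant genes Txn1 (-1.33) and Prdx1 (-1.17) were lower too. The antioxidant response element core TGACNNNGC lay in the promoters of 3 of 5 higher and 1 of 4 lower members with a promoter in the reference table, against 14.0% of all genes. In the 250 bases before the start alone it lay in 0 of the 5 higher and 1 of the 4 lower members, against 11.5% of all genes.

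Inflammatory and interferon genes were higher. Of 25 tested NF-kB subunits, inhibitors and targets, 19 were higher and 0 lower, with a median of 1.69 against 0.04 in DMSO. Cxcl10, a chemokine that interferon and NF-kB induce, was 1.09, 2.43 and 2.39 CPM in WT and 27.2, 41.7 and 19.7 CPM in knockout-labelled libraries (3.91 ± 0.42, edgeR adjusted p = 7.94e-05). In DMSO it was 5.17 ± 1.85 CPM in WT and 8.47 ± 2.09 CPM in knockout-labelled libraries (SD, n = 3). The atypical inhibitor proteins Bcl3 (2.05) and Nfkbiz (2.47) and the ubiquitin ligase Birc3 (1.69) were also called higher. All 5 subunit genes, Nfkb1, Nfkb2, Rel, Rela and Relb, were among the 19. The loose NF-kB motif (GGG, any 5 bases, CC) was in the promoters of 12 of 14 higher members, against 53.5% of all genes.

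Of 40 interferon-stimulated genes, 30 were higher and 1 lower (Bst2, -0.70, a call lost with the offsets and without the third WT or second knockout-labelled library), with a median of 1.42 and, in DMSO, 0.36. Rsad2, which encodes the antiviral enzyme viperin, was 14.5, 16.3 and 24.0 CPM in WT and 154, 132 and 86.9 CPM in knockout-labelled libraries (2.77 ± 0.30, edgeR adjusted p = 7.94e-05). Gbp2, a guanylate-binding protein, was 38.2, 44.8 and 41.4 CPM against 312, 168 and 108 CPM (2.24 ± 0.29, edgeR adjusted p = 0.000166). In both genes the third knockout-labelled library was the lowest of its group and still above every WT library. In DMSO, Rsad2 was 49.0 ± 9.56 CPM in WT and 62.5 ± 22.1 CPM in knockout-labelled libraries (SD, n = 3), so the WT bortezomib libraries lay below the DMSO libraries and the knockout-labelled ones above. Cre in the knockout-labelled mice is itself under an interferon-responsive promoter. How an inducer of Cre bears on these genes was not tested.

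Interferon acts on many of these genes through the interferon-stimulated response element, and its core was searched as TTTC, any 2 bases, TTTC on both strands of RefSeq promoter windows (GRCm38.p6, 250 bases before to 50 after the start). It was found in 13 of the 21 higher members that had a window, against 3.99% of all 27025 genes, and in 11 of 21 against 3.46% when only the bases before the start were counted. The window of the 1 lower member held it as well. A match is a description of the letters and not a measured site. The stretches below show the core, in capitals, upstream of called genes, from chr19:34583353-34583402 (plus strand) for Ifit3, chr12:26456543-26456592 (minus strand) for Rsad2, chr3:142620584-142620633 (plus strand) for Gbp2 and chr10:128270256-128270305 (plus strand) for Stat2. Ifit3 (3.10), an antiviral protein, and Stat2 (2.28), a subunit of the factor that binds this element, were chosen for display after their values were seen.
Ifit3: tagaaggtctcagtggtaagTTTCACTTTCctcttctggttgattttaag
Rsad2: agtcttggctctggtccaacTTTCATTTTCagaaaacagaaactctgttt
Gbp2: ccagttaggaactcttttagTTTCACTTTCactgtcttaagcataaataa
Stat2: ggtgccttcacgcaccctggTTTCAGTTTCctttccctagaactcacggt

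Cytokine receptors and their feedback genes were higher in 13 of 21 cases, and 0 were lower (median 0.96, in DMSO 0.48). Csf2rb, the shared beta chain of the IL-3, GM-CSF and IL-5 receptors, was 27.9, 24.8 and 33.2 CPM in WT and 212, 152 and 124 CPM in knockout-labelled libraries (2.51 ± 0.23, edgeR adjusted p = 5.63e-05). Its neighbour and close copy Csf2rb2, an IL-3-specific beta chain, was 3.93, 4.16 and 3.43 against 58.5, 51.2 and 33.9 CPM (3.64 ± 0.30, edgeR adjusted p = 3.65e-05). Reads shared between this pair of copies could have been split either way, so their separate values are uncertain. Il10ra, a chain of the IL-10 receptor, was 2.84, 0.702 and 4.27 CPM in WT and 56.6, 109 and 61.0 CPM in knockout-labelled libraries (4.84 ± 0.54, edgeR adjusted p = 8.04e-05). Socs3, the inhibitor that cytokines induce against their own signal, was 29.4, 18.6 and 30.4 CPM against 203, 279 and 193 CPM (3.10 ± 0.35, edgeR adjusted p = 8.04e-05). In DMSO, Il10ra was 5.02 ± 1.88 CPM in WT and 24.98 ± 11.4 CPM in knockout-labelled libraries (SD, n = 3), a difference in the same direction that was not called. Il6st, the shared gp130 chain of the IL-6 receptor family, had a log2 fold change of 2.02.

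Immediate early genes, which respond to signals within minutes, were higher in 12 of 26 cases with 0 lower (median 0.77). Klf6, a transcription factor, was 50.4, 52.1 and 58.4 CPM in WT and 144, 173 and 132 CPM in knockout-labelled libraries (1.48 ± 0.17, edgeR adjusted p = 0.000104), and Ier3 and Junb had log2 fold changes of 2.29 and 2.08. Fos, Jun and Egr1 were not called. The AP-1 site TGANTCA was in 0 of 11 promoters of higher members, against 8.97% of all genes. Of 17 TGF-beta and BMP response genes, 7 were higher and 0 lower (median 0.47), but with length and GC offsets 5 were higher, 1 lower and the median 0.05, and 2 were lower without the third knockout-labelled library.

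**Figure D5:**
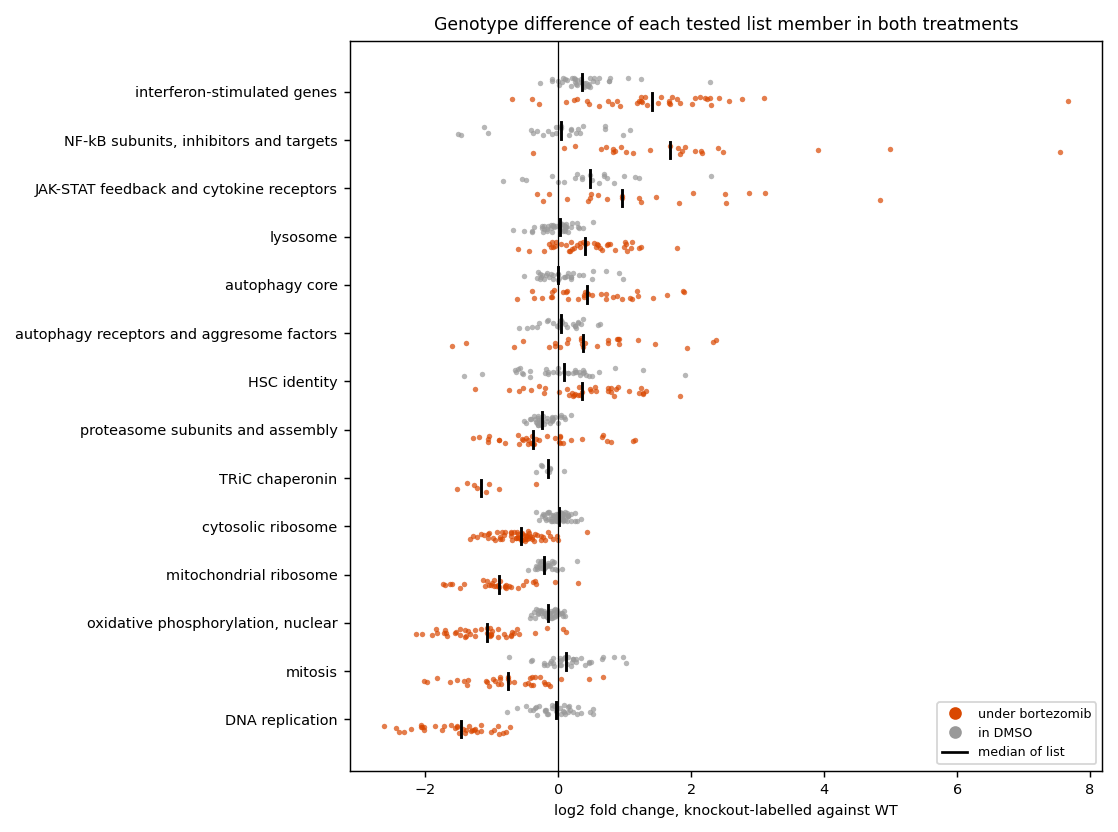
Log2 fold change of every tested member of 14 gene lists, knockout-labelled against WT HSCs, under bortezomib (orange) and in DMSO (grey), with black bars at the list medians; vertical scatter within a row has no meaning. Medians in DMSO lie between -0.25 and 0.48, and under bortezomib they run from -1.46 (DNA replication) to 1.69 (NF-kB genes). The fold changes above 6 belong to genes with almost no counts in the WT libraries and depend on the prior count.

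DNA replication genes were lower in full. All 36 tested genes of that list were called lower, with a median of -1.46 against -0.04 in DMSO, and 30 to 36 were lower in each alternative setting. Tk1, thymidine kinase, which salvages thymidine for DNA, was 240.1, 245 and 165 CPM in WT and 35.5, 22.0 and 48.3 CPM in knockout-labelled libraries (-2.62 ± 0.28, edgeR adjusted p = 7.94e-05). Mcm5, a subunit of the replicative helicase, was 609, 545 and 492 CPM against 160.1, 94.1 and 144 CPM (-2.05 ± 0.25, edgeR adjusted p = 0.000117). In DMSO, Mcm5 was 296 ± 17.1 CPM in WT and 315 ± 106 CPM in knockout-labelled libraries (SD, n = 3), between its WT and knockout-labelled levels under bortezomib. Tyms (-2.44) and Dut (-2.39), which supply thymidine nucleotides, and Mcm6 (-1.27) were lower as well. Ccne1, the cyclin that starts S phase, was 43.8, 40.2 and 24.2 CPM in WT and 4.37, 4.74 and 7.08 CPM in knockout-labelled libraries (-2.74 ± 0.42, edgeR adjusted p = 0.000329). In bulk RNA, fewer cells in cycle and less of these transcripts per cell cannot be told apart.

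Genes of mitosis followed less evenly, with 15 of 36 lower, 0 higher and a median of -0.75 (in DMSO 0.11). Cdk1, the kinase that drives entry into mitosis, was 297, 300.4 and 220.5 CPM in WT and 76.9, 55.6 and 68.7 CPM in knockout-labelled libraries (-2.02 ± 0.21, edgeR adjusted p = 7.67e-05). Stmn1, a microtubule-destabilizing protein of dividing cells, was 811, 749 and 655 against 229, 154 and 237 CPM (-1.83 ± 0.18, edgeR adjusted p = 5.63e-05), among the 6 smallest p-values of all genes. The ranges of Cdk1 and Stmn1 did not overlap. Stmn1, named for its p-value, is not on the mitosis list. On that list the ranges did not overlap for 6 of the 36 genes, against 44.1% of all tested genes. Summed over the list, the WT libraries had 4258, 4582 and 2155 CPM and the knockout-labelled libraries 2553, 1688 and 1264 CPM, and these overlap at the third WT library.

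E2F factors bind promoters of many replication genes, and their motif was searched as TTTNNCGC on both strands, a search added after the data were seen. It was in the windows of 14 of 30 lower replication genes with a promoter, against 5.93% of all genes, and in 9 of 30 against 4.94% in the bases before the start alone. The capitals mark the motif or its reverse complement in chr8:75109336-75109383 (plus strand) for Mcm5, chr1:128359788-128359835 (minus strand) for Mcm6 and chr4:108579407-108579453 (plus strand) for Orc1, a subunit of the origin recognition complex (-2.06) shown for its motif. In the Mcm5 and Mcm6 stretches another match overlaps the one shown.
Mcm5: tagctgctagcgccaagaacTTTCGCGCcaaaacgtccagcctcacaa
Mcm6: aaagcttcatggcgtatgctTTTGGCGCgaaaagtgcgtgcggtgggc
Orc1: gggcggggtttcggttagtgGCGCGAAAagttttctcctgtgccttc

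Nuclear genes of the respiratory chain were lower almost throughout. Of 43 tested, 39 were lower and 0 higher, with a median of -1.07 against -0.15 in DMSO, and -1.01 with length and GC offsets (39 lower). Cycs, cytochrome c, was 237, 213 and 184 CPM in WT and 36.3, 37.3 and 70.7 CPM in knockout-labelled libraries (-2.13 ± 0.28, edgeR adjusted p = 0.000168). In DMSO it was 64.0 ± 12.5 CPM in WT and 61.5 ± 19.3 CPM in knockout-labelled libraries (SD, n = 3). The WT bortezomib libraries therefore stood above the other 3 groups. Uqcrq of complex III (-2.06) and Cox5a of complex IV (-1.72) were lower by similar amounts. Of 32 mitochondrial ribosomal proteins, 27 were lower and 0 higher (median -0.90), among them Mrpl18 at -1.74.

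Of the 13 genes of the mitochondrial genome, 5 were higher and 0 lower (median 0.26), and the ranges of WT and knockout-labelled libraries did not overlap at 4 of the 13. mt-Nd6, a subunit of complex I, was 87.4, 100.01 and 136 CPM in WT and 214, 287 and 258 CPM in knockout-labelled libraries (1.23 ± 0.20, edgeR adjusted p = 0.000401), and mt-Nd5, another, had a log2 fold change of 1.11. The ends of this pair overlap on opposite strands, and the strand setting of the counting is not given, so some of their reads may not be separable. The other calls were less firm, since 2 genes were called higher when the first or second WT library or the third knockout-labelled library was left out, 3 without the second knockout-labelled library, and 2 were called lower without the third.

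Many ribosomal genes were lower. Of 59 cytosolic ribosomal proteins, 28 were lower and 0 higher (median -0.57, in DMSO 0.02), but this count was 12 without the first knockout-labelled library, 18 without the first WT library and 43 with the replicate number as a block or the Xist share as covariate. These are short transcripts, with a median length of 1151 nt, and many have processed copies that can share reads. Of 30 ribosome biogenesis genes, 17 were lower and 0 higher (median -0.62), or 11 lower without the second knockout-labelled library. Nop58, a protein of the small nucleolar particles that modify ribosomal RNA, was 248, 245 and 268 CPM in WT and 122, 107 and 126 CPM in knockout-labelled libraries (-1.10 ± 0.17, edgeR adjusted p = 0.000296). Of 19 glycolysis genes, 8 were lower and 1 higher (median -0.23), with Pgam1 at -1.31.

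Genes of HSC identity were higher more often than lower, 14 against 4 of 37 (median 0.36, in DMSO 0.08). Tek, the angiopoietin receptor of quiescent HSCs, was 29.1, 32.4 and 24.1 CPM in WT and 117, 98.4 and 87.9 CPM in knockout-labelled libraries (1.83 ± 0.20, edgeR adjusted p = 7.94e-05). In DMSO it was 74.5 ± 17.2 CPM in WT and 89.9 ± 3.99 CPM in knockout-labelled libraries (SD, n = 3), so its low level was in the WT bortezomib libraries. Runx1, a transcription factor required to form HSCs, was 87.7, 78.3 and 85.1 CPM against 209.9, 199 and 172 CPM (1.21 ± 0.17, edgeR adjusted p = 0.000221). Cdkn1c, which encodes the quiescence-linked cell cycle inhibitor p57, moved against the list, at 31.9, 32.2 and 60.5 CPM in WT and 16.4, 18.1 and 17.7 CPM in knockout-labelled libraries (-1.26 ± 0.25, edgeR adjusted p = 0.00171). With length and GC offsets, 9 members were higher and 6 lower, 9 were higher without the first WT library, and 1 or 2 were lower without the second WT or the first or second knockout-labelled library. Txnip, a thioredoxin inhibitor listed with quiescence genes, was 411, 456 and 723 CPM against 1449, 1562 and 1512 CPM (1.51 ± 0.25, edgeR adjusted p = 0.000496).

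Of 22 p53 targets, 8 were higher and 1 lower, Bax (median 0.19, and -0.04 with length and GC offsets). Bbc3, the pro-apoptotic protein PUMA, was 10.0, 9.99 and 12.3 CPM in WT and 42.8, 42.8 and 29.0 CPM in knockout-labelled libraries (1.83 ± 0.25, edgeR adjusted p = 0.000183), and Gadd45a, a DNA damage response gene, had a log2 fold change of 2.17. Apoptosis regulators were split at 5 higher and 5 lower of 23, shares close to the background of 17.2% and 15.3%. The higher count was 2 without the first WT library and 3 without the second WT or the first or second knockout-labelled library, and the lower count 3 without the second knockout-labelled library. Bok, a pro-apoptotic relative of BCL2, was 27.5, 17.1 and 22.5 CPM in WT and 2.601, 1.99 and 5.84 CPM in knockout-labelled libraries (-2.67 ± 0.44, edgeR adjusted p = 0.000475).

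Markers of other cell types differed in some lists, to be read beside the 17.2% of all tested genes called higher and 15.3% called lower. Of 21 tested monocyte and macrophage markers, 9 were lower and 3 higher (median -1.07). The summed level of all 22 on the list was 829.9 to 1232 CPM in WT and 438 to 795 CPM in knockout-labelled libraries. C1qa, a complement gene of macrophages, was 14.7, 11.3 and 27.0 CPM in WT and 1.53, 3.83 and 3.44 CPM in knockout-labelled libraries (-2.59 ± 0.44, edgeR adjusted p = 0.000582). Hmox1, given above with the NRF2 targets, is on this list too. Itgam was among the 3 higher members, and the log2 fold changes of the list ran from -2.59 to 4.25. Without the third WT library, 5 of the markers were lower, and 1 was higher without the first WT or the first or the third knockout-labelled library. Of 10 tested endothelial and stromal markers, 7 were higher and 0 lower (median 2.27, in DMSO 0.32). All 18 on that list summed to 113 to 132 CPM in WT and 268 to 354 CPM in knockout-labelled libraries. Tek and Pecam1 (1.59), which HSCs also express, are among these 7. Both lie below the median of the list, whose tested members ran from -0.19 to 5.30. The other called members had larger rises among them and are not named here. Cdh5, Col1a1, Col3a1, Lepr, Lum, Dcn, Bglap and Pdgfra failed the filter on low counts.

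The 17 erythroid markers matched in the count table summed to 2024 to 2140.0 CPM in WT and 1081 to 1348 CPM in knockout-labelled libraries. Of the 14 that were tested, 3 were higher and 2 lower. The median log2 fold change of the tested members was 0.90, with 11 of the 14 above 0, so the sum and most of the tested members differed in sign. The beta-globin gene Hbb-bt was 166, 192 and 151 CPM in WT and 8.50, 11.6 and 47.8 CPM in knockout-labelled libraries (-2.90 ± 0.52, edgeR adjusted p = 0.000736), and it is one of a pair of near-identical adult copies that can share reads. Neutrophil markers summed to 253 to 384 CPM in WT and 237 to 366 CPM in knockout-labelled libraries, which overlap. The 7 tested B cell markers had 1 higher member, Cd74 (1.88), an antigen presentation gene that interferon also induces. Of the megakaryocyte markers 5 were higher and 4 lower of 17, of the T and NK cell markers 1 and 2 of 6, and of the dendritic, mast and basophil markers 2 and 1 of 11. Committed progenitor markers were higher for 6 and lower for 1, Cd48, of 16. The erythroid list, the B cell list and the dendritic, mast and basophil list had shares near or below those of all tested genes. Of the megakaryocyte markers 2 were higher without the first or second WT or the first knockout-labelled library, and 2 were lower without the first WT or the first or second knockout-labelled library. Of the committed progenitor markers 3 were higher without the second WT or the first knockout-labelled library, and 2 and 3 were lower without the first WT and the third knockout-labelled library. The T and NK cell list had 1 lower member without the first WT library, and the B cell list 1 without the third knockout-labelled library. The dendritic, mast and basophil list had 1 higher member without the first or the third WT or the first or second knockout-labelled library, and 0 lower without the third WT or the second knockout-labelled library. The part of other cells in the differences above was not tested.

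By size, the largest rises among genes at 5 CPM or more whose groups did not overlap included Gadd45g, a growth arrest gene, at 2.79, 4.59 and 6.11 CPM in WT and 90.1, 86.3 and 44.5 CPM in knockout-labelled libraries (4.03 ± 0.42, edgeR adjusted p = 7.67e-05). Fam46c, which adds poly(A) tails to secretory protein transcripts, was 0.742, 0.324 and 2.93 CPM against 55.0, 48.4 and 12.1 CPM (4.84 ± 0.67, edgeR adjusted p = 0.000192). The complement gene C4b was 0.262, 0.108 and 0.944 CPM against 8.08, 10.3 and 10.3 CPM (4.43 ± 0.58, edgeR adjusted p = 0.000166). The WT counts of the last 2 genes were few, so their folds are less sure than their direction. Among the largest falls, Fkbp11, a folding enzyme of the secretory pathway, was 131, 111 and 117 CPM in WT and 12.9, 5.56 and 30.3 CPM in knockout-labelled libraries (-2.87 ± 0.40, edgeR adjusted p = 0.000209). Rps6ka6, a kinase of the RSK family, was 21.6, 19.9 and 14.8 CPM against 2.55, 2.55 and 2.28 CPM (-2.93 ± 0.40, edgeR adjusted p = 0.000192). The smallest p-values also included Impact (1.86), an inhibitor of the amino acid sensor kinase GCN2, Scpep1 (2.01), a lysosomal carboxypeptidase, and Chpf2 (1.64), of chondroitin synthesis. Impact was 58.1, 48.4 and 72.0 CPM in WT and 201, 244 and 202 CPM in knockout-labelled libraries, and 63.9 ± 3.90 CPM and 57.4 ± 6.18 CPM in the WT and knockout-labelled DMSO libraries (SD, n = 3), so the knockout-labelled bortezomib libraries stood apart from the other 3 groups.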

How the data were processed

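Per the labels' protocols, RNA of the sorted HSCs was extracted with the RNeasy Plus Micro chemistry and made into SMART-seq2 libraries. The authors deposited raw counts per gene for 47729 genes, and the submitters' processing notes name STAR 2.6.1, HTSeq 0.7.1 and Bowtie 1.0.0 as tools and the builds GRCm38.p4 and GRCh38, without their roles. For the counting, the annotation release and strand setting were not stated there. Positions come from GENCODE M21 (GRCm38), and 0 columns lacked a sample.

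Counts of the 12 treated libraries were filtered with filterByExpr (16149 genes kept), scaled by TMM and fitted with edgeR 4.0.16 in R 4.3.3, with 1 mean per group, so that the 4 groups shared an estimate of the spread. Contrasts were tested by quasi-likelihood with Benjamini-Hochberg adjustment at 0.05. CPM uses TMM-scaled library sizes. At these depths the floor of 3 counts per library bounds what can be seen. Libraries of a group were compared with each other, and none was a duplicate.

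Members and gene lists were chosen with earlier results of these data known, and 944 of 945 list entries matched. Named genes are those behind the sort and the targeted gene, then the 12 largest rises and 12 largest falls among called genes of at least 5 CPM whose groups did not overlap, the 6 smallest p-values, and in each list up to 5 called members with the smallest p and the 2 most abundant. The text gives part of them, so calls of named genes are steadier than calls at large. List members named outside this rule, with Psmb5, Ifit3, Stat2 and Orc1 among them, were taken after their values were seen. Motifs were matched in RefSeq promoters. Results of some genes and of 1 list are not reported here.

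Alternatives were relative log expression size factors, no filter, the replicate number as a block, the Xist share as covariate, offsets for length and GC content, leaving out each library or the 3 numbered 3 together, only the groups compared, limma 3.58.1 voom with quality weights and the DESeq2 1.42.0 Wald test. The covariate within the 6 bortezomib libraries was added after seeing the data. The procedure was tested on simulated counts with few changed genes and no length trend. It was thus not tested at the share of called genes or with the length trend seen here. Figures used Python 3.11.15 and matplotlib 3.10.9.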

Additional observations from a re-analysis of the deposited data

Results flagged for a closer look

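At 1462 genes the genotype difference under bortezomib differed from the genotype difference in DMSO, by edgeR's interaction term at an adjusted p under 0.05. The 70 such genes that are named in the text are given here with that difference of log2 fold changes, positive where the knockout-labelled HSCs were relatively higher under bortezomib. No control library is shared between the genotype contrasts, and the interaction rests on all 12 treated libraries. With the Xist share as covariate the interaction was called at 276 genes. How each of the 70 held in other settings was not checked for the interaction.

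Among autophagy and lysosome genes it was 2.34 for Sqstm1, 1.96 for Calcoco1, 1.38 for Ulk1, 0.88 for Atg13, 1.64 for Rb1cc1, 1.17 for Atg14, 1.08 for Gabarapl1, 1.37 for Bag3, 1.26 for Ctss, 1.14 for Gaa, 1.35 for Atp6v0a1 and 1.95 for Scpep1, and it was -1.61 for Dynll1 and -1.32 for Phb2. Among stress genes it was 1.05 for Psmd3, -0.84 for Psmg2, -1.20 for Cct6a, -2.14 for Hspe1, 2.61 for Ppp1r15a, -1.88 for Psat1, -1.73 for Phgdh, 2.77 for Osgin1, 2.76 for Me1, -1.15 for Txn1, -1.87 for Fkbp11 and 2.01 for Impact.

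For inflammatory and signalling genes the difference was 3.20 for Cxcl10, 2.20 for Nfkbiz, 1.92 for Birc3, 2.42 for Rsad2, 2.19 for Gbp2, 2.62 for Ifit3, 1.52 for Stat2, 1.82 for Csf2rb, 2.71 for Csf2rb2, 2.54 for Il10ra, 1.89 for Socs3, 1.29 for Il6st, 1.98 for Klf6, 2.13 for Ier3 and 1.75 for Junb. For genes of division it was -2.43 for Tk1, -2.14 for Mcm5, -2.08 for Tyms, -2.19 for Dut, -1.37 for Mcm6, -1.96 for Orc1, -3.05 for Ccne1, -1.63 for Cdk1 and -1.25 for Stmn1. For mitochondrial, ribosomal and glycolytic genes it was -2.08 for Cycs, -1.73 for Uqcrq, -1.73 for Cox5a, -1.53 for Mrpl18, 1.06 for mt-Nd6, 0.93 for mt-Nd5, -1.02 for Nop58 and -1.24 for Pgam1.

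Of the remaining genes, Tek had a difference of 1.55, Runx1 1.13, Txnip 1.52, Bbc3 1.18, Gadd45a 2.27, Gadd45g 3.35, Fam46c 5.17, Chpf2 1.61, Bok -3.37, Hbb-bt -4.14, Rps6ka6 -2.31 and Cd48 -2.78.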

How the results depend on the processing

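The genotype difference under bortezomib was called at 5199 genes with relative log expression size factors, 5461 without a filter, 5218 with the Xist share as covariate, 6449 without the 3 libraries numbered 3 (WT in DMSO and bortezomib, knockout-labelled in bortezomib), 4370 with only the groups compared, 7428 with voom and 5933 with DESeq2, against 5234. Leaving out 1 library gave 3582 (without the first WT bortezomib library) to 6000, with 1793 to 3071 higher and 1789 to 2929 lower. With the Xist share as covariate within the 6 bortezomib libraries, 3654 were called, 1777 higher. No gene called both ways changed direction in any of these settings, and 85 of the 88 called genes named in the text stayed called in all of them, the exceptions being Kit, Ly6a and Bst2. Atg5 lay between -0.13 and 0.36 with 1 library left out, and Map1lc3b passed the threshold in 2 settings.

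The genotype difference in DMSO, 0 genes, became 189 without a filter, 2 with the Xist share, 12 with length and GC offsets, 40 without the libraries numbered 3, 23 with only the groups compared, 114 with voom, 157 with DESeq2 and 0 to 1 with 1 library left out. The interaction, 1462 genes, became 2319 without a filter, 276 with the Xist share, 2070 with offsets, 4015 without the libraries numbered 3, 4862 with voom, 2443 with DESeq2 and 352 to 2820 with 1 library left out. Motif counts in the bases before the start alone fell from 4 to 1 (a lower member) for the antioxidant element and from 14 to 9 for E2F. The cause of these shifts was not tested.

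The replicate number as a block gave 5657 genes under bortezomib, 23 in DMSO and 1889 in the interaction. Same-numbered WT and knockout-labelled bortezomib libraries deviated from their group means with correlations of -0.03, 0.04 and 0.05. Pairs with different numbers ranged from -0.07 to 0.03. These values cannot decide whether the number marks a shared batch, since each mean holds only 3 libraries and the labels do not say. With 3 libraries per group the depth of counts limits mainly genes near the floor, such as C4b and Fam46c in WT.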

Other observations

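One list not described above was mixed. Of 18 imprinted and quiescence genes, 6 were higher (Gab1, Txnip, Foxo3, Foxo1, Sgce and Meg3) and 2 lower (Cdkn1c and Ndn), with a median log2 fold change of 0.46. With length and GC offsets these counts were 3 and 4.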
